A study of Mus musculus with 10 samples.

Results

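The aminoacyl-tRNA synthetases, the enzymes that load each tRNA with its amino acid, were followed in the forebrain of mouse embryos whose mothers ate powdered or pelleted chow. The genes were taken by name from the list of known synthetases, with earlier results of these data known. For them 35 of the 21225 probe sets on the arrays were found, with no listed gene missing. Of these, 20 were listed as cytosolic enzymes and 15 as mitochondrial enzymes. The split follows the gene names, and a gene whose products work in both places was not set apart. Each probe set summarized 1 gene as a log2 value, so that a difference of 1 is a doubling, and no value was set against that of another gene.

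There were 2 groups of 5 arrays, each array from the forebrain of 1 wild-type embryo at embryonic day 15.5. The powdered chow group (animals 87, 88, 108, 111 and 115) was carried by dams fed Bioserv F3197, a purified powder, and the pelleted chow group (animals 05, 07, 09, 11 and 15) by dams fed the pellets Teklad 2918. All dams were C57Bl/6J and all sires carried the Ts1Cje chromosome, a model of Down syndrome, which the sampled embryos had not inherited. The diets were given from breeding onward and differed in many ingredients as well as in texture, and the labels give neither fetal sex, litter nor day of preparation, so that diet and any batch tied to the animal numbers cannot be told apart.

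A synthetase joins an amino acid to the tRNAs that read its codons, and the loaded tRNA is then carried to the ribosome by an elongation factor. In the cytosol, some of the enzymes are held in a multi-synthetase complex and the others move freely. The mitochondrial enzymes are made from nuclear genes and serve the small set of proteins encoded by mitochondrial DNA. When amino acids run short, uncharged tRNA activates the kinase GCN2 (Eif2ak4), translation of the transcription factor ATF4 goes up, and ATF4 induces amino acid transporters, biosynthetic enzymes and many of the cytosolic synthetases.

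The arrays of each diet were alike, with mean correlations of 0.992 to 0.995 within a diet and 0.976 to 0.983 between diets. Differences between diets were widespread, and 43.1% of all probe sets passed an adjusted p of 0.05 (limma, Benjamini-Hochberg over all 21225), 21.2% higher and 21.8% lower with powdered chow. The 9 forebrain marker genes averaged 10.11 to 10.23 on the powdered chow arrays, against 9.81 to 10.04 on the pelleted chow arrays, and the 7 midbrain and hindbrain genes averaged 6.71 to 6.93 against 6.85 to 7.24. Genes of mitosis averaged 8.90 to 9.11 with powdered chow, against 8.10 to 8.52 with pelleted chow. Within the pelleted chow group, animals 05 and 07 stood apart from the other 3 in the averages of these genes (8.52 and 8.49, against 8.10 to 8.19) and of erythroid genes (6.86 and 6.73, against 6.41 to 6.46), while erythroid genes averaged 6.70 to 6.86 with powdered chow. They held the highest 2 pelleted chow values in 9 of 11 mitosis genes and 5 of 8 erythroid genes, against 10.7% of all probe sets. The genes of a list did not all follow its average. Called higher and lower were 5 and 0 of 9 forebrain genes and 0 and 3 of 7 midbrain and hindbrain genes. For mitosis these counts were 9 and 1 of 11, and for erythroid genes 2 and 1 of 8. What part these markers have in the results below was not tested. Counts of called genes were also taken without animals 05 and 07, and these are given for some of the lists. Counts of overlap, of spread and of pairs were taken on all arrays only.

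The cytosolic synthetases moved in both directions. Of the 20 genes, 4 were higher with powdered chow (Tars, Hars, Eprs and Gars), 7 were lower (Yars, Farsa, Vars, Aars, Wars, Mars and Farsb) and 9 did not pass the test. The median difference over the 20 was -0.07, against -0.02 over all probe sets, and the 11 of 20 called stand beside 43.1% of all probe sets. The values of the diets did not overlap for 8 of the 20, 4 in each direction, where 32.6% of all probe sets had no overlap. The study's methods set narrower limits, a change of over 1.5-fold with a raw p below 0.001 and an adjusted p below 0.01. At these limits 3 were higher, Tars, Hars and Eprs, and 1 was lower, Yars, where 4.84% and 3.43% of all probe sets passed. Without animals 05 and 07, 4 were higher and 8 lower, against 19.6% and 20.2% of all probe sets, with Cars as the added gene.

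**Figure D1:**
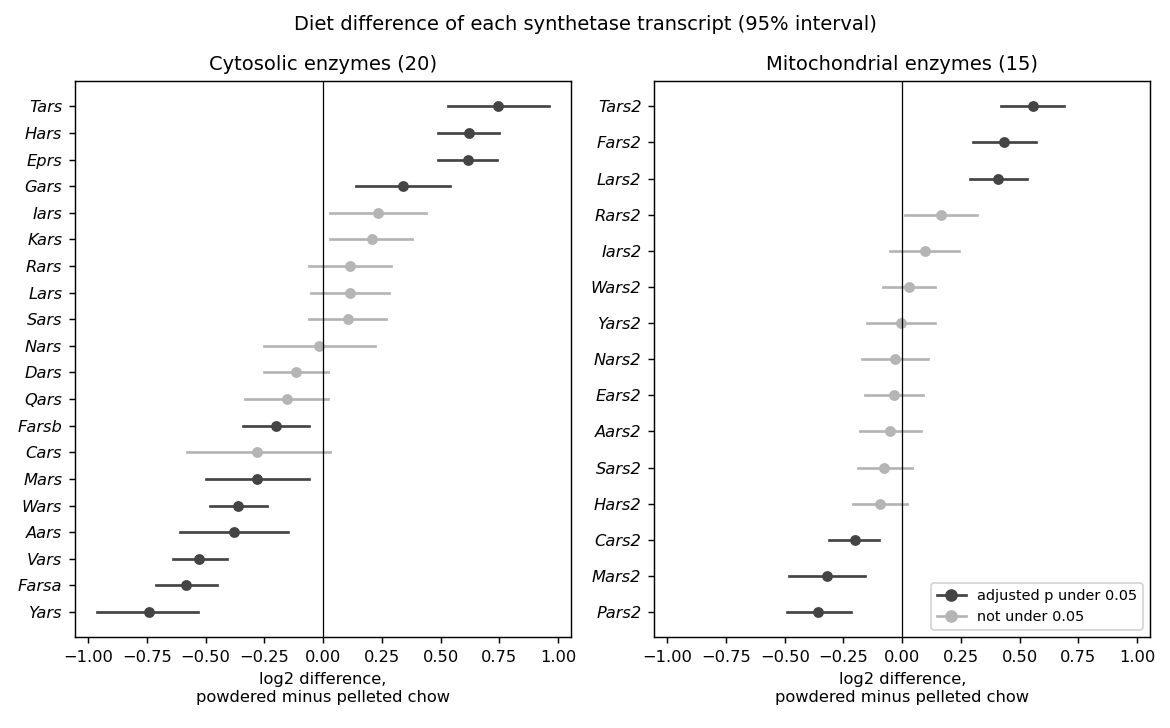
Log2 difference (powdered minus pelleted chow) of each synthetase gene with its 95% confidence interval from limma, cytosolic and mitochondrial enzymes apart, n = 5 arrays per diet. Cytosolic differences run between Yars at -0.74 and Tars at 0.74, and mitochondrial ones between Pars2 at -0.36 and Tars2 at 0.56.

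Tars (Entrez Gene 110960, chromosome 15), which charges threonine, had log2 values of 9.48, 9.33, 9.23, 9.52 and 9.38 with powdered chow, against 8.31, 8.55, 8.65, 8.88 and 8.82 with pelleted chow. Every powdered chow array was above every pelleted chow array, and the group means were 9.39 ± 0.11 and 8.64 ± 0.23 (SD, n = 5 each). The difference was 0.74 (SE 0.10), or 1.68-fold, at a limma adjusted p of 5.38e-05.

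Hars (Entrez Gene 15115, chromosome 18), the histidine enzyme, measured 10.22, 10.05, 10.15, 10.22 and 10.14 with powdered chow, against 9.45, 9.57, 9.66, 9.41 and 9.57 with pelleted chow. Its groups were separated by more than the range of either, and the difference was 0.62 (SE 0.06, adjusted p = 3.94e-06 by limma). Eprs (Entrez Gene 107508, chromosome 1) encodes a fused enzyme that charges both glutamate and proline and belongs to the multi-synthetase complex. Its values were 10.53, 10.45, 10.49, 10.54 and 10.53 with powdered chow, against 9.79, 9.85, 10.04, 9.81 and 9.96 with pelleted chow. No array of either diet fell within the range of the other, and the difference was 0.62 (SE 0.06, adjusted p = 2.76e-06 by limma).

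Gars (Entrez Gene 353172, chromosome 6), which charges glycine, had nearly the same value on every powdered chow array, 11.06, 11.06, 11.08, 11.05 and 11.06. Pelleted chow arrays were all lower and spread widely, at 10.47, 10.51, 10.89, 10.75 and 10.98. Gars differed by 0.34 (SE 0.09, limma adjusted p = 0.00833), and by 0.19 without animals 05 and 07 (adjusted p = 0.0376), which had its lowest values.

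Yars (Entrez Gene 107271, chromosome 4), the tyrosine enzyme, fell furthest, with values of 9.70, 9.55, 9.68, 9.65 and 9.60 under powdered chow, against 10.12, 10.25, 10.54, 10.26 and 10.73 under pelleted chow. All powdered chow arrays were below all pelleted chow arrays, and the difference was -0.74 (SE 0.10, adjusted p = 5.34e-05 by limma). Farsa (Entrez Gene 66590, chromosome 8) encodes the catalytic alpha subunit of the phenylalanine enzyme. It had 8.95, 8.92, 8.89, 8.94 and 8.88 with powdered chow, against 9.30, 9.54, 9.56, 9.48 and 9.60 with pelleted chow. The groups did not overlap, and the difference of -0.58 (SE 0.06, adjusted p = 6.59e-06 by limma) fell just short of the fold change limit of the methods, which is 0.585 on the log2 scale. Farsb, the beta subunit of the same enzyme, was lower by a smaller amount, with 9.50 to 9.67 in powdered chow embryos and 9.63 to 9.87 in pelleted chow embryos. Its difference was -0.20 (SE 0.06, adjusted p = 0.0219 by limma), and it missed the threshold when pelleted chow animal 07, 09 or 15 or powdered chow animal 88 was left out (adjusted p of 0.0509, 0.0602, 0.0579 and 0.0513).

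Vars (Entrez Gene 22321, chromosome 17), which charges valine, measured 9.05, 9.09, 9.14, 9.04 and 9.06 with powdered chow, against 9.59, 9.62, 9.67, 9.66 and 9.49 with pelleted chow. Both groups were tight and far apart for this gene, at a difference of -0.53 (SE 0.05, adjusted p = 4.02e-06 by limma). Wars (Entrez Gene 22375, chromosome 12), the tryptophan enzyme, had 9.92, 9.88, 9.88, 9.76 and 9.83 with powdered chow, against 10.11, 10.27, 10.24, 10.25 and 10.21 with pelleted chow. Wars was lower on every powdered chow array, by a mean of 0.36 on the log2 scale (difference -0.36, SE 0.05, limma adjusted p = 1.24e-04).

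Aars (Entrez Gene 234734, chromosome 8) charges alanine. Its values were 9.84, 9.84, 9.83, 9.78 and 9.69 with powdered chow, against 9.81, 9.96, 10.41, 10.29 and 10.39 with pelleted chow. The pelleted chow arrays of animals 05 and 07 lay at or near the powdered chow values and the other 3 lay well above. The difference was -0.38 (SE 0.11, adjusted p = 0.012 by limma), and -0.57 without those animals (adjusted p = 3.40e-05).

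Mars (Entrez Gene 216443, Mars1 in RefSeq, chromosome 10), which charges methionine and also supplies the initiator tRNA, had the same arrangement, with 9.46, 9.42, 9.56, 9.35 and 9.39 with powdered chow, against 9.41, 9.51, 9.96, 9.78 and 9.94 with pelleted chow. Animals 05 and 07 again lay among the powdered chow values. Its difference of -0.28 (SE 0.10, limma adjusted p = 0.0389) was -0.46 without them (adjusted p = 3.72e-04). The call was lost without pelleted chow animal 09, 11 or 15 (adjusted p of 0.101, 0.0795 and 0.101) or powdered chow animal 87, 88, 111 or 115 (adjusted p of 0.0607, 0.0685, 0.0826 and 0.0749).

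**Figure D2:**
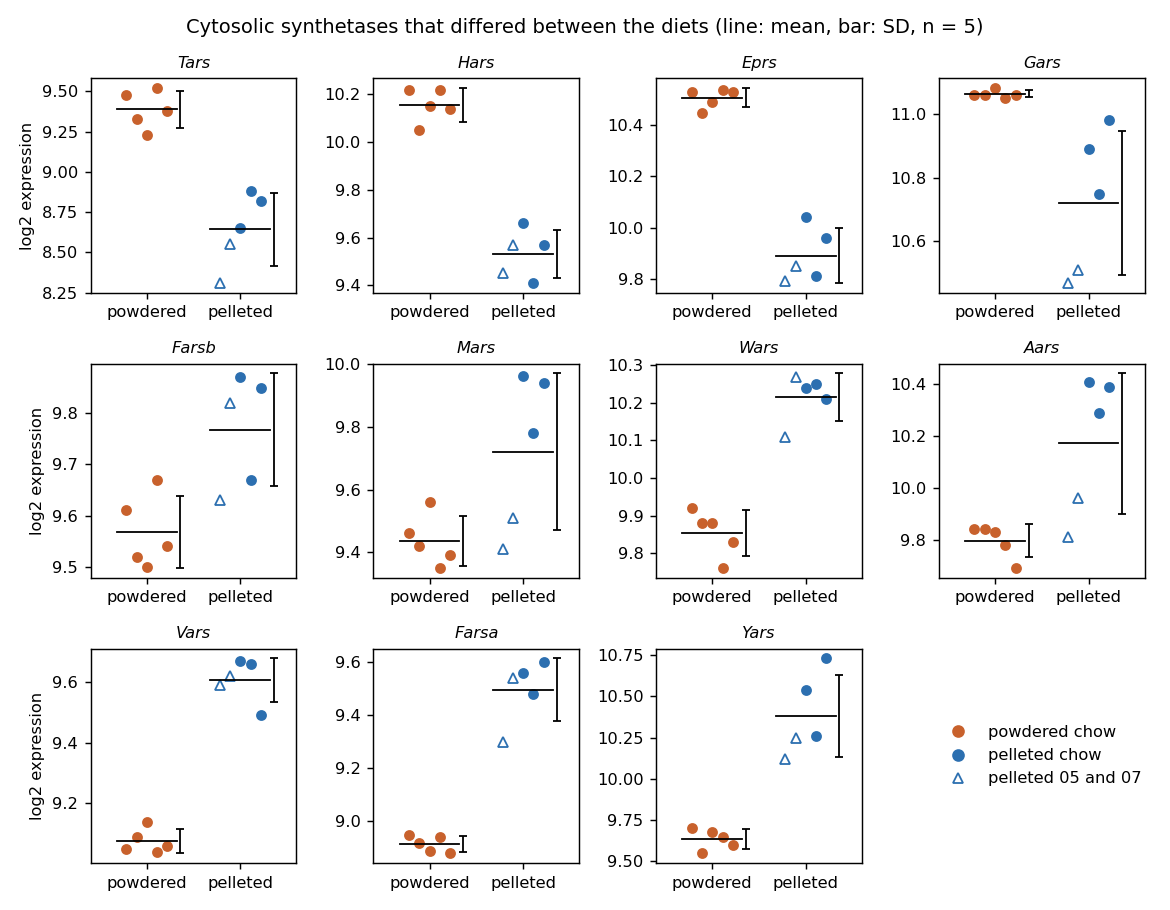
Log2 value of the called cytosolic synthetases on each array, powdered chow left of pelleted chow, with 1 point per array, a line at the mean and a bar for the SD (n = 5), open triangles marking pelleted chow animals 05 and 07. Tars, Hars, Eprs and Gars lie higher with powdered chow, while for Aars and Mars the pelleted chow animals 05 and 07 (9.81 and 9.96 for Aars) lie near the powdered chow values.

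The 9 remaining cytosolic genes did not pass the test. Kars, the lysine enzyme, differed by 0.21 (95% interval 0.03 to 0.38, limma adjusted p = 0.0517), and Iars, the isoleucine enzyme, by 0.23 (0.03 to 0.44, adjusted p = 0.0618). Cars, which charges cysteine, differed by -0.28 (-0.58 to 0.03, adjusted p = 0.131). Its powdered chow values lay within 9.21 to 9.39, while the pelleted chow values were 9.12 and 9.16 in animals 05 and 07 and 9.78, 9.65 and 9.95 in the other 3. Cars was therefore below the powdered chow group in 2 pelleted chow embryos and above it in 3, and without animals 05 and 07 it differed by -0.54 (adjusted p = 2.61e-04). Nars, the asparagine enzyme, was 10.76 to 10.83 with powdered chow, against 10.49 and 10.57 in animals 05 and 07 and 10.85 to 11.18 in the other pelleted chow animals, and its means differed by -0.02 (-0.25 to 0.22, adjusted p = 0.912). Differences of Rars (arginine), Lars (leucine) and Sars (serine) were 0.11 each, and those of Dars (aspartate) and Qars (glutamine) were -0.12 and -0.15, with intervals that included 0.

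By place in the cell, 1 of the 8 genes of the multi-synthetase complex was higher (Eprs) and 1 lower (Mars), while of the 12 free enzymes 3 were higher and 6 lower, where 21.2% of all probe sets were higher and 21.8% lower. Synthetases also fall into 2 structural classes with unrelated catalytic folds. Among the 9 class I genes, 0 were higher and 4 lower (Yars, Vars, Wars and Mars), and among the 10 class II genes 3 were higher and 3 lower, with Eprs, which has a domain of each class, left aside, beside the same shares of all probe sets. These are counts over few genes, and the difference between groups of genes was not tested.

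The spread between embryos differed by diet. The SD of a cytosolic synthetase had a median of 0.06 with powdered chow, against 0.19 with pelleted chow, and it was larger with pelleted chow in 19 of the 20 genes, where 53.9% of all probe sets had the larger SD with pelleted chow. Over all probe sets the median SD was 0.10 with powdered chow and 0.11 with pelleted chow. The SDs were not taken again without animals 05 and 07. Animals 05 and 07 held the lowest 2 pelleted chow values for 9 of the 20 (Aars, Cars, Gars, Iars, Lars, Mars, Nars, Tars and Yars), where 10.6% of all probe sets had that order. They held the highest 2 for 1 of the 20, against 10.7%.

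All 9 of those genes belong to the 12 cytosolic synthetases listed as induced by ATF4 (the others are Eprs, Sars and Wars), and 0 of the 8 remaining cytosolic synthetases showed that order. The lists were chosen with earlier results of these data known, and animals 05 and 07 were singled out from the same arrays. These counts are therefore a description, and a link to ATF4 was not tested. On each powdered chow array the 12 genes averaged 10.02 to 10.08. Their pelleted chow averages were 9.79 and 9.90 in animals 05 and 07, and 10.17, 10.05 and 10.27 in animals 09, 11 and 15. The powdered chow embryos thus lay between the pelleted chow subsets for this list as a whole, apart from animal 11, whose average was within the powdered chow range. On every powdered chow array Tars, Eprs and Gars were above all pelleted chow arrays, and Yars and Wars were below them. The order of the average thus did not hold for these genes. In direction the list was split, with 3 of 12 higher (Tars, Eprs and Gars) and 4 lower (Yars, Aars, Wars and Mars). Over all probe sets 21.2% were higher and 21.8% lower, and the median difference of the list was 0.04.

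**Figure D3:**
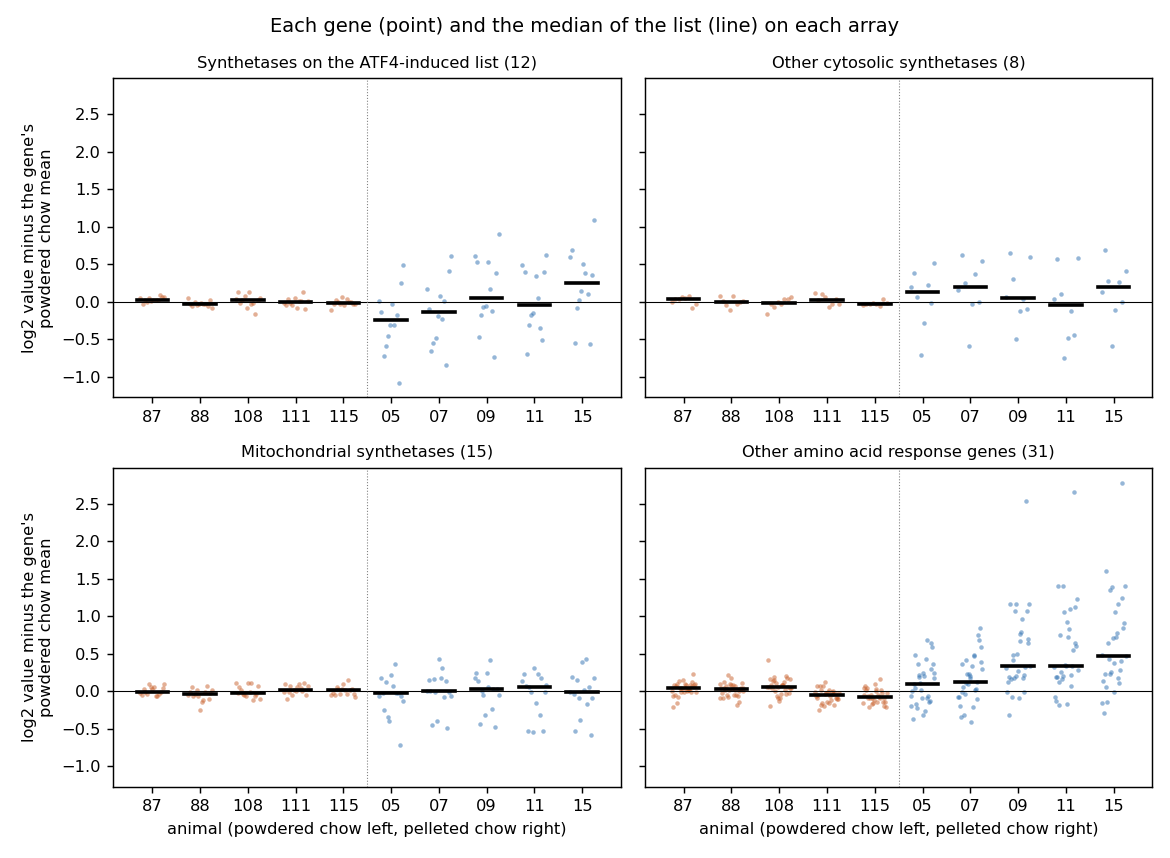
Log2 value of each gene minus its own powdered chow mean, on each array, for the ATF4-induced synthetases (12), the other cytosolic synthetases (8), the mitochondrial synthetases (15) and the other amino acid response genes (31), with powdered chow animals left, points for genes and a line at the median of the list. Pelleted chow animals 05 and 07 have the lowest 2 medians of the pelleted chow group for the ATF4-induced synthetases and for the amino acid response genes.

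ATF4 binds, with C/EBP partners, to a composite element whose core reads TGATGNAA. The window between 250 bases before and 50 bases after the transcription start (RefSeq, GRCm38.p6) was searched for TGATGNAA on both strands, where N is any base and a match on the other strand reads TTNCATCA. A match was present in 3.97% of all 32851 windows. Counted by gene, as for the synthetases below, it was present in 4.51% of all genes with a window. Among genes measured on the arrays with a window the share was 3.68%. Of the 20 cytosolic synthetases 13 had a window, and 5 of these held a match (Aars, Gars, Iars, Tars and Yars), all on the ATF4-induced list. Of the 12 genes on that list 8 had a window, and among these Eprs, Mars and Sars held no match. Cars, Lars, Nars and Wars, also on that list, had no window. The 5 other cytosolic synthetases with a window and the 13 mitochondrial synthetases with a window held 0 matches. A matched stretch of each is shown because genes that hold a match differed in direction, and that of Asns, the classic ATF4 target, is added for comparison. Each is written 5′ to 3′ on the strand of the gene, with the match in capitals.
Tars: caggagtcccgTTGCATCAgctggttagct
Gars: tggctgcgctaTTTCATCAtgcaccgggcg
Iars: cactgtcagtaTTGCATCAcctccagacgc
Yars: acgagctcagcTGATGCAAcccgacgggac
Aars: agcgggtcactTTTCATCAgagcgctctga
Asns: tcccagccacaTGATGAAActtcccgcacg
These lie at chr15:11399655-11399684 (minus strand) for Tars, chr6:55037960-55037989 (plus) for Gars, chr13:49682126-49682155 (plus) for Iars, chr4:129189895-129189924 (plus) for Yars, chr8:111033840-111033869 (plus) for Aars, and chr6:7693214-7693243 (minus) for Asns. Among these synthetases Tars (0.74) and Gars (0.34) were higher with powdered chow, Yars (-0.74) and Aars (-0.38) were lower, and Iars (0.23) did not pass the test. The matches shown for Aars (positions 10 to 17), Iars (8 to 15) and Yars (4 to 11) lie after the transcription start. Aars held another match before the start, at -112 to -105, which is not shown. A match describes these letters only and is not evidence of binding.

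Of the 31 other genes of the amino acid response, 2 were higher, 17 lower and 12 did not pass, where 21.2% of all probe sets were higher and 21.8% lower, and the median difference was -0.33, against -0.02 over all probe sets. Animals 05 and 07 held the lowest 2 pelleted chow values in 23 of the 31, where 10.6% of all probe sets had that order. Without them 1 was higher and 24 lower, where 19.6% and 20.2% of all probe sets were. Asns, asparagine synthetase, an amidotransferase and not a tRNA ligase, measured 10.23, 10.29, 10.24, 10.15 and 10.03 with powdered chow, against 10.21, 10.42, 11.35, 11.24 and 11.58 with pelleted chow. As for Aars and Mars, animals 05 and 07 lay near the powdered chow embryos, and the difference was -0.77 (SE 0.22, limma adjusted p = 0.0119), or -1.20 without them.

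Atf4 itself had 8.99, 9.09, 9.05, 8.98 and 8.84 with powdered chow, against 8.79, 8.92, 9.30, 9.32 and 9.48 with pelleted chow, a difference of -0.18 that did not pass (limma adjusted p = 0.249). Without animals 05 and 07 it was -0.38 and passed (adjusted p = 0.00176), as it did without animal 05 alone (-0.27, adjusted p = 0.044). Slc7a5, the large neutral amino acid transporter, was lower on every powdered chow array (10.72 to 10.89, against 11.45 to 12.05, adjusted p = 1.32e-05). The cystine transporter gene Slc7a11 (-0.71) and Aldh18a1 (-0.66), which starts proline synthesis, were also lower. Slc7a3, a cationic amino acid transporter gene, was lower by a mean difference of -1.80 (SE 0.42, limma adjusted p = 0.00355). Its powdered chow values were 7.36 to 7.67, against 7.79 and 8.25 in pelleted chow animals 05 and 07 and 10.03, 10.15 and 10.28 in animals 09, 11 and 15. Without animals 05 and 07 the Slc7a3 difference was -2.66. Ddit3, the stress factor CHOP, was higher (0.29, adjusted p = 0.00388).

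Among 7 kinase and regulator genes upstream of ATF4, not all of them sensors of amino acids, 4 were higher and 0 lower. Of all probe sets 21.2% and 21.8% were, and the counts were the same without animals 05 and 07. Eif2ak2, the kinase PKR, was higher by 0.83 (adjusted p = 4.66e-06 by limma), Eif2ak1, the heme-regulated kinase, by 0.50 and Eif2ak3, the kinase PERK, by 0.30. Eif2ak4, the sensor of uncharged tRNA, differed by 0.11 (adjusted p = 0.203).

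The mitochondrial synthetases were divided evenly, with 3 of 15 higher with powdered chow (Tars2, Fars2 and Lars2), 3 lower (Pars2, Mars2 and Cars2) and 9 not passing. Their median difference was -0.03, and 0 passed the limits of the methods. The 6 of 15 called stand beside 43.1% of all probe sets, and without animals 05 and 07 the counts were 4 higher and 3 lower. Groups did not overlap for 6 of the 15, where 32.6% of all probe sets had no overlap. Tars2 (Entrez Gene 71807, chromosome 3), the threonine enzyme, had the largest difference, with 9.61, 9.52, 9.59, 9.73 and 9.65 with powdered chow, against 8.90, 9.13, 9.15, 9.09 and 9.04 with pelleted chow. It was higher on all powdered chow arrays, by 0.56 (SE 0.06, adjusted p = 1.04e-05 by limma).

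Fars2 (Entrez Gene 69955, chromosome 13), the phenylalanine enzyme, had 8.54, 8.49, 8.57, 8.55 and 8.61 with powdered chow, against 8.31, 8.11, 8.12, 8.03 and 8.03 with pelleted chow. Lars2 (Entrez Gene 102436, chromosome 9), the leucine enzyme, had 8.45, 8.33, 8.33, 8.41 and 8.42 with powdered chow, against 7.99, 7.99, 8.08, 7.85 and 8.01 with pelleted chow. Both were higher on every powdered chow array, Fars2 by 0.43 (SE 0.06, limma adjusted p = 7.46e-05) and Lars2 by 0.41 (SE 0.06, adjusted p = 5.86e-05).

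Pars2 (Entrez Gene 230577, chromosome 4), the proline enzyme, had 7.04, 6.99, 7.21, 7.20 and 7.07 with powdered chow, against 7.47, 7.42, 7.52, 7.33 and 7.54 with pelleted chow. Mars2 (Entrez Gene 212679, chromosome 1), the methionine enzyme, had 8.37, 8.10, 8.46, 8.35 and 8.44 with powdered chow, against 8.56, 8.78, 8.59, 8.65 and 8.74 with pelleted chow. Cars2 (Entrez Gene 71941, chromosome 8), the cysteine enzyme, had 8.28, 8.32, 8.30, 8.42 and 8.31 with powdered chow, against 8.51, 8.48, 8.57, 8.56 and 8.52 with pelleted chow. All powdered chow arrays were below all pelleted chow arrays for these 3 genes, with differences of -0.36 for Pars2, -0.32 for Mars2 and -0.20 for Cars2 (limma adjusted p of 4.90e-04, 0.00345 and 0.00463).

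The 9 that did not pass differed by -0.09 (Hars2) to 0.16 (Rars2, adjusted p = 0.0781 by limma). The spread of the mitochondrial enzymes was close between diets, with a median SD of 0.07 with powdered chow and 0.09 with pelleted chow. Animals 05 and 07 held the lowest 2 pelleted chow values in 2 of 15, and the average of the 15 genes was 8.27 to 8.34 with powdered chow, against 8.25 to 8.31 with pelleted chow.

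**Figure D4:**
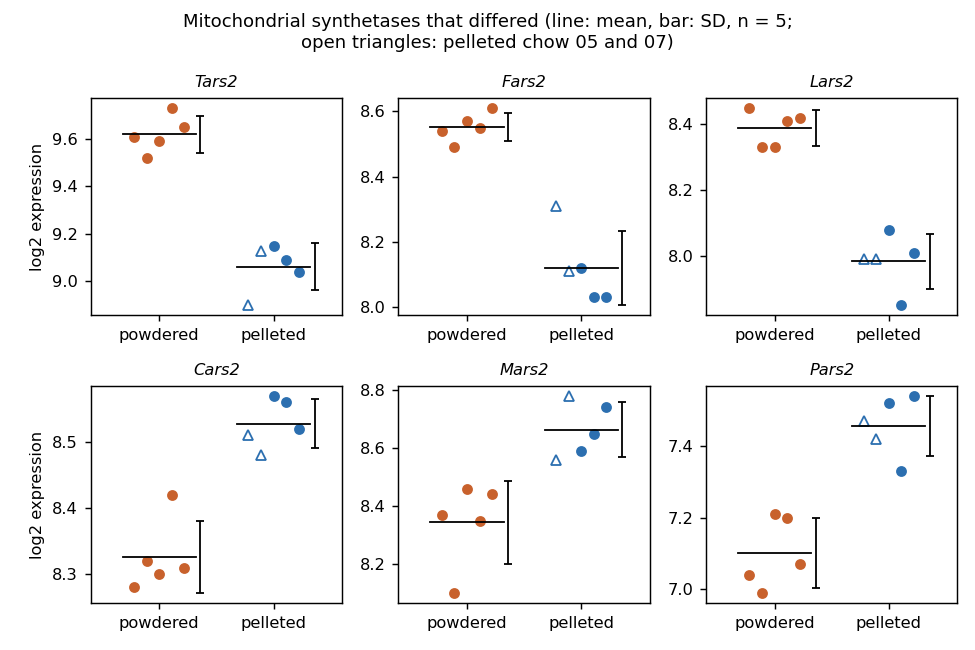
Log2 value of the called mitochondrial synthetases on each array, powdered chow left of pelleted chow, with 1 point per array, a line at the mean and a bar for the SD (n = 5), open triangles marking pelleted chow animals 05 and 07. Tars2, Fars2 and Lars2 lie higher and Pars2, Mars2 and Cars2 lower with powdered chow, without overlap.

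For 16 pairs, a mitochondrial and a cytosolic gene serve the same amino acid. Both genes passed the test in 5 pairs, in the same direction in 2 (Tars2 with Tars higher, Mars2 with Mars lower) and in opposite directions in 3 (Fars2 higher with Farsa and with Farsb lower, and Pars2 lower with Eprs higher). Fars2 and Eprs each stand in 2 pairs, and Farsa and Farsb are subunits of 1 enzyme, so the pairs are not independent. Of all probe sets taken singly 43.1% passed, and no such share was taken for pairs. Hars and Hars2 are neighbours on chromosome 18, and Hars rose by 0.62 while Hars2 had a difference of -0.09 (adjusted p = 0.167 by limma). Yars and Yars2 likewise had differences of -0.74 and -0.01.

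**Figure D5:**
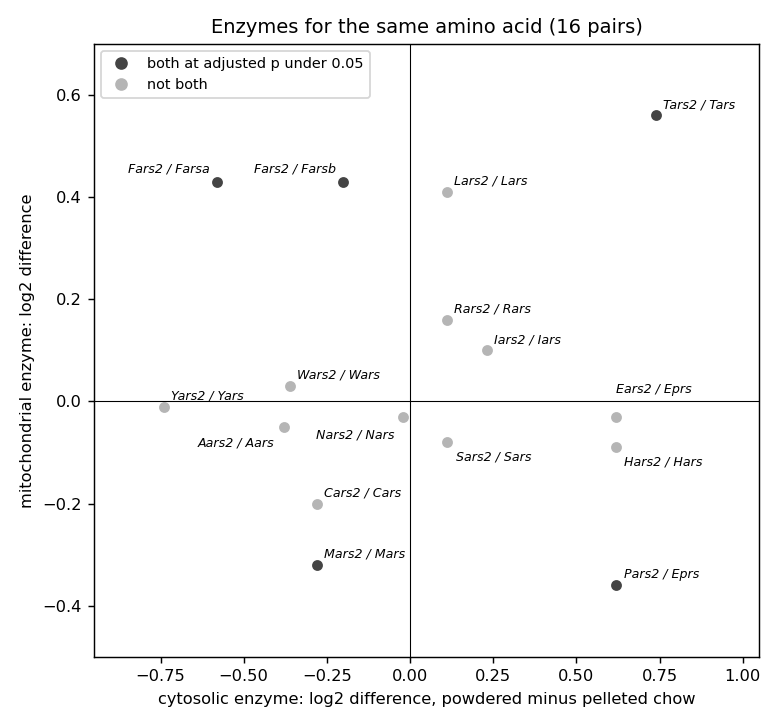
Log2 difference (powdered minus pelleted chow) of the mitochondrial gene against that of the cytosolic gene for the same amino acid, 16 pairs, dark points where both passed an adjusted p of 0.05. The pair Tars2 and Tars lies high on both axes (0.56 and 0.74), and Pars2 with Eprs lies at -0.36 and 0.62.

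Proteins that work beside the synthetases were measured as well. Of the 3 non-enzymatic proteins that hold the cytosolic complex together, Aimp1 had 9.84, 9.81, 9.64, 9.66 and 9.72 with powdered chow, against 9.02, 8.91, 8.93, 8.54 and 8.85 with pelleted chow. Eef1e1, also known as AIMP3, had 11.27, 11.32, 11.19, 11.11 and 11.09 with powdered chow, against 10.35, 10.40, 10.57, 10.50 and 10.50 with pelleted chow. Both were higher on every powdered chow array, by 0.88 (limma adjusted p = 2.84e-06) and 0.73 (adjusted p = 1.54e-06), while Aimp2 differed by -0.14 (adjusted p = 0.108). Aimp2 passed as lower without animals 05 and 07 (-0.20, limma adjusted p = 0.0334) and without animal 05 alone (-0.18, adjusted p = 0.0216).

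The counts of the next lists stand beside 21.2% of all probe sets higher and 21.8% lower. Of 10 measured genes of tRNA maturation and export 5 were higher and 2 lower, and 5 were higher and 1 lower without animals 05 and 07. Trnt1, which adds the CCA end that a synthetase charges, was higher by 1.08 (limma adjusted p = 1.32e-07), and Ssb, the La protein that binds new tRNA transcripts, by 0.91. Of 6 cytosolic elongation genes 2 were higher and 0 lower, Eef1b2 by 1.00 (limma adjusted p = 7.14e-08) and Eef1d by 0.19, both subunits of the exchange factor of the tRNA carrier eEF1A. Eef1d no longer passed without animals 05 and 07 (adjusted p = 0.0713), which left 1 of 6 higher. Of 6 editing and peptidyl-tRNA genes 0 were higher and 2 lower, Dtd2 (-0.83), which clears mischarged tRNA, and Ptrh2 (-0.57), a peptidyl-tRNA hydrolase.

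Of 8 genes that complete charging or elongation in mitochondria 3 were higher and 1 lower. Gatb (0.38) and Qrsl1 (0.25), subunits of the amidotransferase that makes mitochondrial glutaminyl-tRNA, were higher, and the elongation factor gene Tsfm (-0.52) was lower. Of 4 genes of selenocysteine tRNA 1 was higher, Pstk (0.35), and 2 were lower, Sepsecs (-0.29) and Eefsec (-0.21). The enzymes encoded by Pstk and Sepsecs act in sequence on that tRNA.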

How the data were processed

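Per the labels and the study's methods, RNA of E15.5 forebrain was hybridised to Affymetrix whole-transcript arrays, and the authors deposited log2 values normalized with RMA, 1 per Entrez gene; array files were not used here. Values were used as deposited. The diets were compared with limma 3.58.1 in R 4.3.3 (powdered minus pelleted chow, no covariate, 5 arrays each), with Benjamini-Hochberg adjustment over 21225 probe sets and a call at an adjusted p under 0.05. The methods' t-test, other normalizations, filters on dim probe sets and each array left out were alternatives, and the script was tested on simulated data. The labels do not give litters; per the methods each embryo came from a separate litter. The median SE of a difference was 0.0723, and the number of arrays limits precision. Per-array values are given for called synthetases with the largest changes (up to 6 each way for cytosolic and 4 for mitochondrial). The called genes with the lowest 3 p-values of each pathway list, and Atf4, Asns, Slc7a3, Ddit3, Eif2ak4 and the scaffold genes, were also named, most by their difference only. The members and lists were chosen with earlier results of these data known. A RefSeq symbol was found for 20768 probe sets; Tsen34, Hba-a1 and Ccnb1 were not matched. A few items that the naming rule would include are not reported here.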

Additional observations from a re-analysis of the deposited data

Results flagged for a closer look

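Of 74 groups of 5 arrays tested, 5 had 1 array far from the other 4 by Dixon's test, and chance flags about 1 in 20 groups. With powdered chow, animal 108 was highest for Cars (9.39, next 9.23) and for Gars (11.08, next 11.06), and animal 111 was highest for Cars2 (8.42, next 8.32). With pelleted chow, animal 11 was lowest for Rars (9.91, next 10.26) and animal 05 for Iars2 (8.63, next 8.89).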

How the results depend on the processing

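The synthetase counts kept within 1.5 times under all 19 alternatives except at the limits of the methods, where array quality weights left 1 cytosolic gene higher (3 otherwise reported) and 2 lower, and where median centring, quantile normalization and leaving out pelleted chow animals 05 and 07 together gave 2 lower, against 1 as reported. With single arrays left out, that count was 1 to 2, and cytosolic calls were 4 to 5 higher and 5 to 8 lower; other settings gave up to 6 higher. The amino acid response genes called higher, 2 as reported, were 1 with the methods' t-test, with median centring and without animals 05 and 07 together, and 1 to 3 with single arrays left out. The methods' t-test lost Mars (adjusted p = 0.0898) and Asns (adjusted p = 0.0544). Near the threshold, Cars passed without pelleted chow animal 05 or 07 (adjusted p of 0.0285 and 0.0423), Iars without 09 or 15 (0.0417 and 0.0195), Kars without 07 (0.025), Qars without 11 (0.02), and Rars2 without pelleted chow 05 or powdered chow 108 (0.0359 and 0.0457), all by limma. With array quality weights in limma, Cars (adjusted p = 0.0314), Rars2 (0.0279) and Aimp2 (0.0288) passed. Quantile normalization let Kars (0.0499) and Aimp2 (0.0463) pass, and cyclic loess normalization Kars (0.0433). Iars and Kars passed with an intensity trend and robust prior (0.0429 and 0.0359). They also passed without probe sets under the lower quartile (0.0432 and 0.0356) or the median (0.0337 and 0.0269). The median filter let Rars2 pass too (0.0435). Differences that changed sign were uncalled: Nars2 became 0.029 without 05 and 07 together, and single arrays left out gave -0.098 to 0.075 for Nars, -0.077 to 0.0037 for Nars2 and -0.037 to 0.038 for Yars2. The causes were not tested. Leaving out probe sets under the median removed Aars2, Ears2 and Pars2. No paired analysis was possible because the diets share no animal numbers. No depth applies to arrays, and 5 per diet limit the precision.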
